A study of Arabidopsis thaliana with 8 samples.

Results

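The genes described here are the 10 core genes of the circadian clock of Arabidopsis thaliana, CCA1 (AT2G46830), LHY (AT1G01060), PRR9 (AT2G46790), PRR7 (AT5G02810), PRR5 (AT5G24470), PRR3 (AT5G60100), TOC1 (AT5G61380), GI (AT1G22770), ELF3 (AT2G25930) and LUX (AT3G46640). They were taken by identifier, and all 10 were found among the 27432 nuclear protein-coding genes of a RefSeq gene table. Chromatin immunoprecipitation followed by sequencing (ChIP-seq) had been done on whole seedlings, a mixture of all their cell types, 7 days after germination. The seedlings grew at 22°C in long days with 16 h of light and 8 h of dark; the hour of harvest is not given in the sources used here. The pulldowns of AtGBPL3-GFP came from gbpl3-5 mutants that carry the genomic fusion under its own promoter (line comp2), and the pulldowns of AtH2B-GFP came from Col-0 plants that express the fusion from the 35S promoter beside their own H2B genes. All pulldowns used the same GFP-binding agarose, with 2 replicates of each fusion; the inputs of both lines were left aside. Nothing in the labels says that replicates were grown separately, and differences between replicates may measure technical spread only.

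The plant clock is a ring of genes that repress each other in turn through the day. CCA1 and LHY encode MYB-type repressors made around dawn, and the pseudo-response regulators PRR9, PRR7, PRR5, PRR3 and TOC1 follow in waves from morning to evening. ELF3 and LUX join the small protein ELF4 in the evening complex, a repressor of the early night, and GI (GIGANTEA) is an afternoon protein that acts with the photoreceptor ZTL and in the control of flowering. H2B is a core histone, and a peak in its list marks a stretch where the tagged histone brought down more DNA than the local background.

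The authors' peak lists of the nuclear chromosomes held 87 and 81 peaks of AtGBPL3-GFP, and 1361 and 8608 peaks of H2B-GFP in replicates 1 and 2. The H2B-GFP peaks had a median width of 358 and 435 bp and a median fold over the local background of 1.88 and 1.76. Their −log10 q, the authors' p-value for enrichment after adjustment within a list (higher is stronger), had a median of 2.18 and 2.62 and a lowest value of 1.30 in both. The depth of the libraries is unknown. Because the H2B-GFP lists differ so much in length, each is read below against its own share of genes with a peak. A peak counted as lying in a gene body when it covered at least 1 bp of it.

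H2B-GFP peaks lay in the bodies of PRR7, GI, ELF3 and LUX in replicate 1 and of GI, ELF3 and LUX in replicate 2. In replicate 1 this was 4 of 10 clock genes, where 4.08% of all protein-coding genes had a body peak. In replicate 2 it was 3 of 10, where 25.2% of protein-coding genes had one, so that the count there is near the background. GI, ELF3 and LUX, 3 of 10, had a body peak in both lists, against 3.13% of protein-coding genes. Of the 1118 protein-coding genes with a replicate 1 body peak, 859 also had one in replicate 2. The count in both lists therefore adds little to that of replicate 1. The peaks of both lists overlapped in GI and LUX, 2 of 10, against 2.48% of protein-coding genes. CCA1, LHY, PRR9, PRR5, PRR3 and TOC1 had no body peak in either list. The list of genes was chosen with results of these data known, and the genes are not replicates of a condition, so these counts carry no test.

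**Figure D1:**
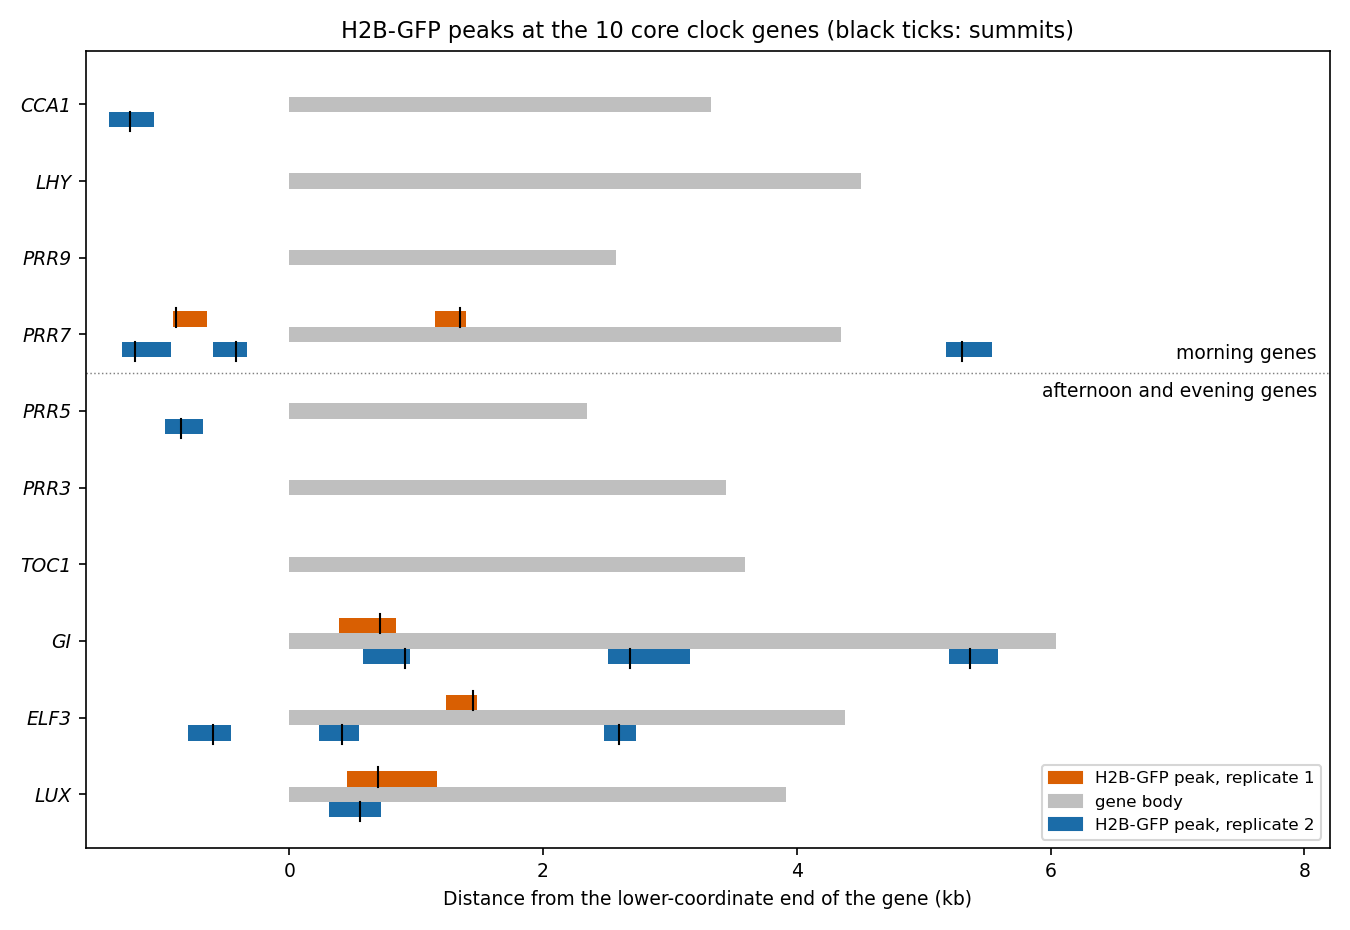
The 10 clock genes (grey bars) drawn from their lower-coordinate end, with distance in kb on the x axis, H2B-GFP peaks of replicate 1 in orange above each gene and of replicate 2 in blue below it, and summits as black ticks. GI and LUX have overlapping peaks of both lists near the lower-coordinate end, ELF3 has peaks of both lists that do not overlap, PRR7 has a body peak in replicate 1 only, and the other 6 genes have none in the body.

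LUX, which encodes the DNA-binding MYB-type protein of the evening complex, had the widest peak of any clock gene body. In replicate 1 a peak on chromosome 3 (17183494 to 17184204, TAIR10, 711 bp) had a fold of 1.65 and a −log10 q of 1.43. It was wider than 91.6% of the peaks of its list, but weak. Only 10.2% of that list had a lower −log10 q and 5.14% a lower fold. In replicate 2 a peak of 408 bp (17183357 to 17183764) had a fold of 1.89 and a −log10 q of 4.68, above 88.2% of its list. The peaks shared 271 bp (17183494 to 17183764), and their summits lay 138 bp apart, at 17183741 and 17183603.

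LUX is 3918 bp long in the table, and its peaks covered 18.1% of it in replicate 1 and 10.4% in replicate 2. Of the 4303 other protein-coding genes within 20% of that length, 0.79% were covered as much or more in replicate 1 and 21.8% in replicate 2. Any body peak was found in 5.51% of them in replicate 1 and 32.2% in replicate 2. By covered share LUX stood near the top of genes of its length in the short list and not in the long one. In the short list this rests on the width of a weak peak. The far end of LUX overlaps AT3G46650 in the table, and no peak of LUX reached that gene.

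ELF3, the scaffold protein of the evening complex, had body peaks in both lists, but at different places. Replicate 1 had a peak on chromosome 2 (11060178 to 11060425, 248 bp) with a fold of 1.93 and a −log10 q of 2.39. Replicate 2 had one at 11059177 to 11059490 (314 bp, fold 1.67, −log10 q 2.16) and one at 11061425 to 11061676 (252 bp, fold 1.84, −log10 q 2.82). The replicate 1 peak lay between the others, with gaps of 687 and 999 bp. A further replicate 2 peak lay 457 bp outside the gene on its lower-coordinate side (11058143 to 11058487, fold 1.87, −log10 q 2.83), in no annotated gene.

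Peaks covered 5.66% of the 4381 bp of ELF3 in replicate 1 and 12.9% in replicate 2. Among 3320 genes of like length, 5.69% were covered as much or more in replicate 1 and 16.2% in replicate 2. Any body peak was found in 6.14% of them in replicate 1 and 32.5% in replicate 2. Nearly all like-length genes with a replicate 1 peak were thus covered at least as much as ELF3. In replicate 2, 8.19% of the like-length genes had 2 or more body peaks, as ELF3 did. GI and ELF3 were the clock genes with at least 2 (2 of 10), against 4.31% of all protein-coding genes. Of the 859 protein-coding genes with body peaks in both lists, 680 (79.2%) had peaks that overlapped, so ELF3 belonged to the smaller share of such genes whose peaks lay apart. No peak of ELF3 lay in its annotated antisense RNA AT2G08135 or in AT2G25940, which overlaps its far end.

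GI, the longest of the 10 genes at 6040 bp, held the most peaks. In replicate 1 a single interval on chromosome 1 (8062145 to 8062592, 448 bp) carried 3 summits, with a highest fold of 1.76 and a highest −log10 q of 1.65. In replicate 2 GI had 3 body peaks. The peak at 8062334 to 8062703 (370 bp) had a fold of 1.67 and a −log10 q of 2.16, that at 8064265 to 8064909 (645 bp) had 1.84 and 3.12, and that at 8066954 to 8067335 (382 bp) had 1.96 and 4.00. The values went up along the gene from its lower-coordinate end, and only the weakest of the 3 was met by a replicate 1 peak.

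The peaks shared by both lists in GI had 259 bp in common (8062334 to 8062592), with the leading summits 200 bp apart. Peaks covered 7.42% of GI in replicate 1 and 23.1% in replicate 2. Of 1399 protein-coding genes of like length, 2.5% were covered as much or more in replicate 1 and 4.5% in replicate 2. Any body peak was found in 8.08% of them in replicate 1 and 36.0% in replicate 2. At least 3 body peaks in replicate 2 were found in 3.15% of them. Over all protein-coding genes 0.627% had at least 3.

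**Figure D2:**
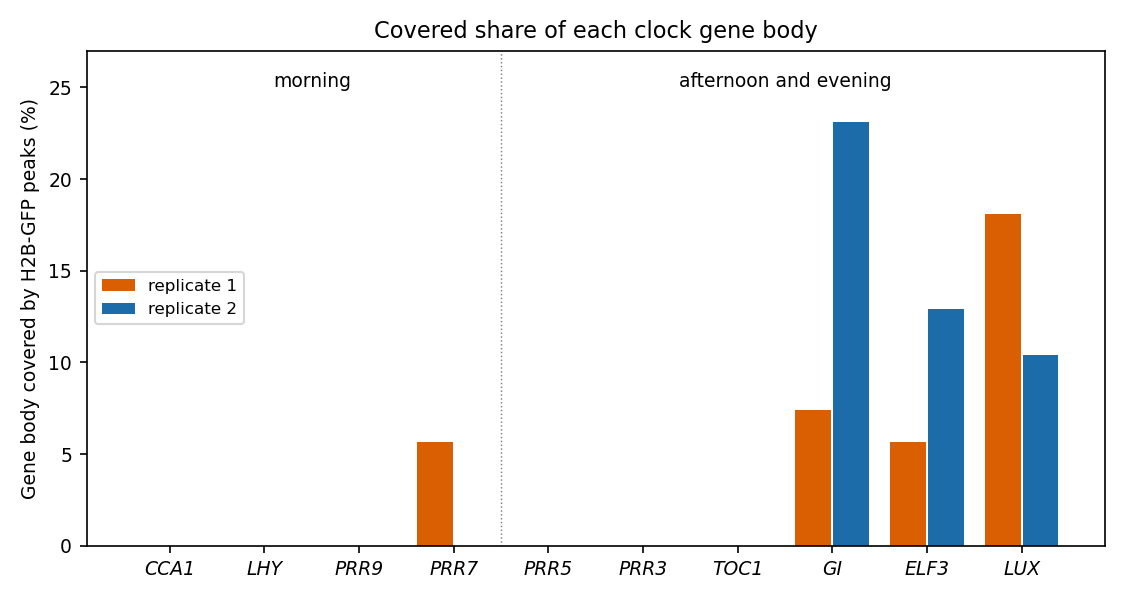
Share of each clock gene body covered by H2B-GFP peaks (percent, y axis) in replicate 1 (orange) and replicate 2 (blue); the dotted line parts the morning genes from the afternoon and evening genes. LUX is covered most in replicate 1 (18.1%) and GI in replicate 2 (23.1%), while CCA1, LHY, PRR9, PRR5, PRR3 and TOC1 stand at 0 in both.

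The 5 pseudo-response regulator genes, several of which encode transcriptional repressors, are active one after another from morning to evening. Only PRR7 among them had a body peak, and only in replicate 1. That peak lay on chromosome 5 (638827 to 639072, 246 bp), with a fold of 1.90 and a −log10 q of 2.10. No peak of its list was narrower. It covered 5.66% of the 4350 bp of PRR7, and 5.97% of 3386 genes of like length had a replicate 1 body peak.

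Around PRR7 both lists had peaks within 1 kb. On the lower-coordinate side they lay in the neighbouring gene AT5G02800: a replicate 1 peak at 636767 to 637029 (fold 1.77, −log10 q 1.49), and replicate 2 peaks at 636364 to 636751 (fold 1.49, −log10 q 1.33) and 637080 to 637348 (fold 1.55, −log10 q 1.53). The replicate 1 peak fell in the space between the others, 15 and 50 bp from their edges, and overlapped neither. On the other side a replicate 2 peak at 642857 to 643215 (fold 1.67, −log10 q 2.16) lay in AT5G02820. Replicate 2 had 3 peaks beside PRR7 and none in it.

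PRR5 had a single peak nearby, in replicate 2, 678 bp from the gene and within the neighbour AT5G24460 (chromosome 5, 8355222 to 8355526). Its fold of 1.42 was among the lowest of the list, where 0.0349% of peaks had a lower one, and its −log10 q was 1.34. PRR9, PRR3 and TOC1, the last of which encodes an evening repressor of CCA1 and LHY, had no peak within 1 kb in either list. The nearest replicate 2 peak stood 8995 bp from PRR9, 6709 bp from PRR3 and 3560 bp from TOC1. The nearest replicate 1 peak stood 34877 bp from PRR9, 54103 bp from PRR3 and 11961 bp from TOC1.

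The dawn genes CCA1 and LHY had no peak in the body or within 1 kb in either list. CCA1 came close to the limit: a replicate 2 peak in the neighbour AT2G46820 (chromosome 2, 19244174 to 19244528, fold 1.72, −log10 q 2.40) ended 1063 bp from it. The peak nearest to PRR9 is the same one, since the genes lie near each other on chromosome 2. LHY had no H2B-GFP peak of either list within 10 kb, the only clock gene of which this was true; its nearest peaks stood 17883 bp away in replicate 1 and 10216 bp away in replicate 2. Among genes of the length of LHY, 6.06% had a body peak in replicate 1 and 32.8% in replicate 2.

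With the 1 kb on either side included, 4 of 10 clock genes had a peak in replicate 1 (PRR7, GI, ELF3 and LUX), against 5.99% of protein-coding genes. In replicate 2 it was 5 of 10, the same genes and PRR5, against 34.8%. In both lists it was 4 of 10, against 4.84%. In either list it was 5 of 10, against 36.0%. The wider window added flank peaks mainly in replicate 2, and most of these lay in neighbouring genes; the peak beside ELF3 was the only one outside any annotated gene.

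Long genes offer more room for a peak, and the clock genes are long: they ran from 2343 to 6040 bp with a median of 3753 bp, against a median of 2078 bp over all protein-coding genes. The share of protein-coding genes with a body peak went up with length, in replicate 1 from 1.17% of genes up to 1 kb to 8.64% of those over 6 kb, and in replicate 2 from 9.89 to 39.8%. For each clock gene the other protein-coding genes within 20% of its length were therefore counted, and the 10 shares were averaged. In replicate 1 the 4 of 10 clock genes stood against a mean like-length share of 5.73%, with 4.37 to 8.08% for the single genes. In replicate 2 the 3 of 10 stood against 32.0%, with 29.0 to 36.0%. For body peaks in both lists the 3 of 10 stood against 4.37%, and for overlapping peaks the 2 of 10 stood against 3.26%. With 1 kb on either side included, the 4 of 10 in replicate 1 stood against 7.73%, and the 5 of 10 in replicate 2 against 41.6%. The 4 of 10 in both lists stood against 6.31%, and the 5 of 10 in either list against 43.0%. Taking length into account raised each background, and in replicate 2 the clock genes were hit about as often as other genes of their length.

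**Figure D3:**
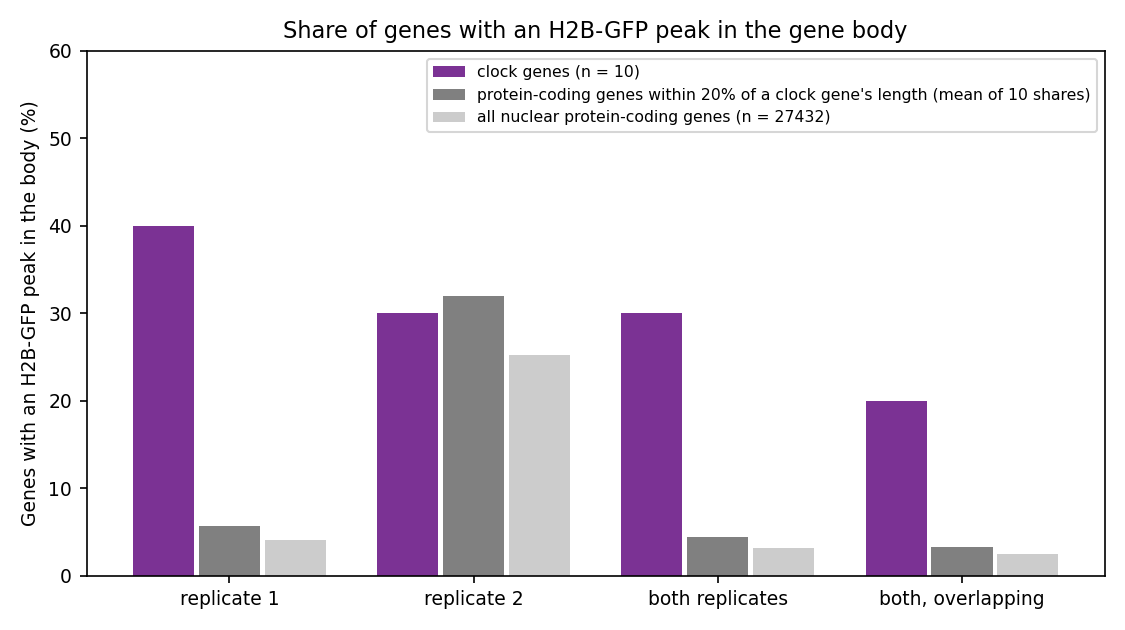
Percent of genes with an H2B-GFP peak in the body, for the 10 clock genes (purple), for protein-coding genes of like length (dark grey, mean of 10 shares) and for all protein-coding genes (light grey), by list. The clock genes stand above both backgrounds in replicate 1 and in both replicates together (4 and 3 of 10 genes), and at about the like-length share of 32.0% in replicate 2.

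**Figure D4:**
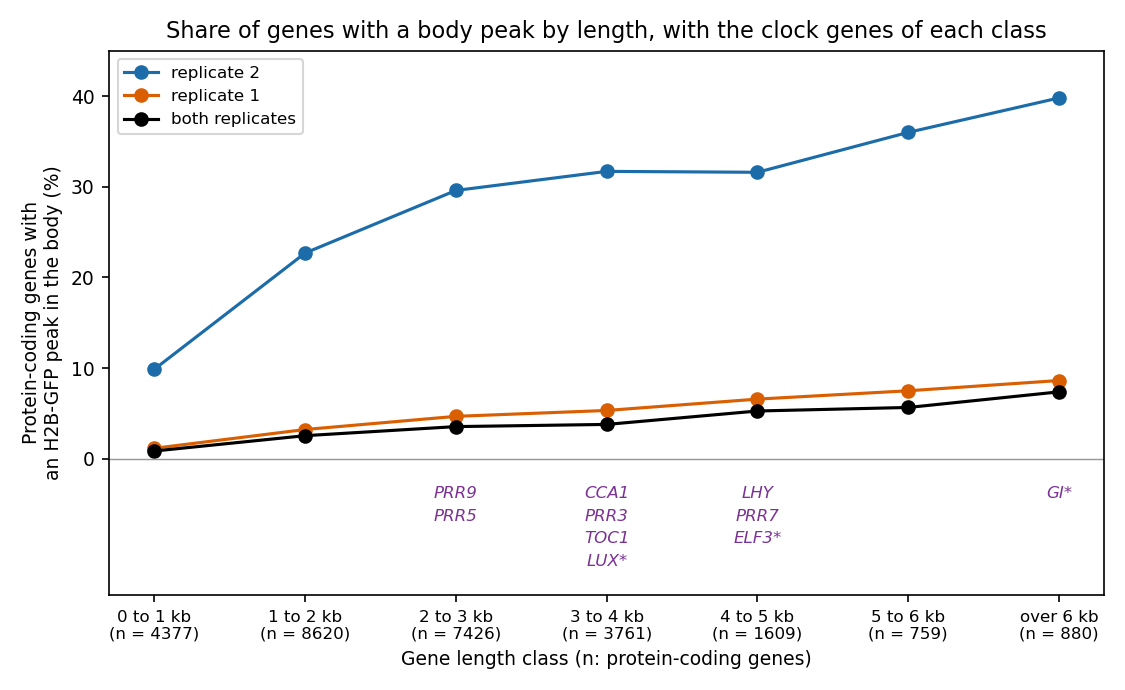
Percent of nuclear protein-coding genes with an H2B-GFP peak in the body (y axis) by gene length class (x axis, n genes in each), for replicate 1, replicate 2 and both; the clock genes of each class are written below, with a star for those with a body peak in both lists. The share goes up with length, to 8.64% in replicate 1 and 39.8% in replicate 2 above 6 kb, and the starred genes LUX, ELF3 and GI are in the classes from 3 kb upward.

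The morning genes (CCA1, LHY, PRR9 and PRR7, by the time of their transcript peak as textbook knowledge) and the afternoon and evening genes (PRR5, PRR3, TOC1, GI, ELF3 and LUX) were then set side by side. In replicate 1, 1 of 4 morning genes and 3 of 6 afternoon and evening genes had a body peak. In replicate 2 it was 0 of 4 and 3 of 6. Their like-length shares were close to each other, with 5.55 and 5.85% in replicate 1 and 31.6 and 32.2% in replicate 2, and their median lengths were 3837.5 and 3753 bp. Peaks covered 1.67% of the summed length of the morning genes and 5.93% of that of the afternoon and evening genes in replicate 1, and 0 and 10.0% in replicate 2. Over all protein-coding genes these shares were 0.713% in replicate 1 and 6.53% in replicate 2. The afternoon and evening group was itself divided, since GI, ELF3 and LUX held all of its body peaks and PRR5, PRR3 and TOC1 none. With 4 and 6 genes that share their libraries, the difference was not tested.

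The strength of the clock genes' body peaks was read within each list and was not compared between replicates. In replicate 1 the 4 peaks had folds of 1.65 to 1.93 and −log10 q values of 1.43 to 2.39, higher than 10.2 to 58.8% of the list. Their median −log10 q was 1.875, against 2.18 over the list. In replicate 2 the 6 peaks had folds of 1.67 to 1.96 and −log10 q values of 2.16 to 4.68, higher than 33.9 to 88.2% of the list. Their median −log10 q was 2.97, against 2.62 over the list, with LUX (4.68) and a peak of GI (4.00, above 81.2% of the list) at the top. With peaks of a −log10 q of at least 2 only, ELF3 and PRR7 were left in replicate 1 (2 of 10, against 2.33% of protein-coding genes) and GI, ELF3 and LUX in replicate 2 (3 of 10, against 19.0%), and ELF3 alone had a body peak in both lists (1 of 10, against 1.66%). No overlapping pair was left at this threshold. The peaks of ELF3 lay apart, and the replicate 1 peaks of GI and LUX had a −log10 q of 1.65 and 1.43. The share of all protein-coding genes with overlapping peaks was not computed at this threshold. At a −log10 q of at least 3 no clock gene was left in replicate 1, against 0.769% of protein-coding genes, and GI and LUX were left in replicate 2 (2 of 10, against 10.8%).

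The summits in clock genes lay at 11.8% of the gene's length from its lower-coordinate end in GI, 17.9% in LUX, 30.9% in PRR7 and 33.1% in ELF3 in replicate 1. In replicate 2 they lay at 15.1, 44.5 and 88.9% in GI, at 9.52 and 59.3% in ELF3 and at 14.3% in LUX. The table gives no strand, so these places are not named as the start or end of the transcript. Over all H2B-GFP peaks with a summit in a single protein-coding gene, the distance to the nearer gene end was taken instead. Its median was 28.3% of the gene's length in replicate 1 and 27.8% in replicate 2. Because the places above count from the lower-coordinate end, they are not directly comparable with these medians.

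The protein-coding genes most like GI, ELF3 and LUX in the covered share of the body over the 2 H2B-GFP lists were looked up by the smallest distance in percentage points. For GI they were AT3G52120 (8.36 and 22.3% covered in replicates 1 and 2), GH9C2 (AT1G64390, 7.17 and 24.4%) and PPI1 (AT4G27500, 8.50 and 22.0%). For ELF3 they were AT5G13950 (5.15 and 13.2%), AT1G69340 (6.25 and 13.4%) and AT3G42050 (5.40 and 12.0%). For LUX they were ALB3 (AT2G28800, 17.4 and 10.3%), VAB3 (AT1G20260, 19.5 and 10.6%) and AT3G61180 (17.3 and 11.7%). All 9 lay within 1.58 percentage points of the clock gene they were matched to. They were picked for the smallest distance, so this closeness follows from the choice, and it rests on 2 lists.

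Beyond the core genes, 33 genes that act with the clock or directly downstream of it were read in the same way. A body peak was found in 4 of 33 in replicate 1, in 12 of 33 in replicate 2 and in 3 of 33 in both, against the 4.08, 25.2 and 3.13% of protein-coding genes given above; their median length was 2768 bp. The genes with a body peak in both lists were TIC (TIME FOR COFFEE, a regulator of clock function), LKP2, an F-box photoreceptor related to ZTL, and PIF4, a growth-promoting bHLH factor whose gene is repressed by the evening complex. The peaks overlapped in TIC (212 bp shared) and PIF4 (278 bp shared) and lay apart in LKP2.

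TIC, 6803 bp long, had 5 body peaks in replicate 2, which covered 65.0% of it, and 1 in replicate 1, which covered 4.66%. LWD2, which encodes a WD40-type clock activator, was covered to 49.6%, and GRP8, a clock-controlled gene for an RNA-binding protein, to 48.5%, both in replicate 2 and with no replicate 1 peak in the body. PIF4 was covered to 9.31% in replicate 1 and 13.0% in replicate 2. The third gene of the evening complex, ELF4, named here after its values were seen, had a replicate 2 peak over 43.5% of its 660 bp (chromosome 2, 16734575 to 16734861, fold 1.62, −log10 q 1.77) and none in replicate 1. Within 1 kb, 5 of 33 had a peak in replicate 1, against 5.99% of protein-coding genes, and 20 of 33 in replicate 2, against 34.8%. In 12 of 33 neither list had a peak, and all the others had one in at least 1 list. Among all protein-coding genes 36.0% had a peak in at least 1 list. That share belongs beside the genes with a peak, and not beside the 12 without. These backgrounds cover protein-coding genes of all lengths, with a median of 2078 bp. No like-length share was computed for the 33 genes, whose median length was larger.

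No AtGBPL3-GFP peak of either replicate lay in or within 1 kb of a clock gene (0 of 10), where 0.117% of protein-coding genes had one, nor was there any within 10 kb. The nearest were 1270 kb from LHY in both replicates. GI, ELF3 and LUX are singled out here because they had an H2B-GFP body peak in each replicate. The AtGBPL3-GFP lists are also far shorter, with 87 and 81 peaks against 1361 and 8608. Their lack of an AtGBPL3-GFP peak is therefore no contrast between the fusions. An exact permutation test of 2 lists against 2 has a smallest 2-sided p of 1 in 3, and the fusions were not tested against each other at a gene.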

How the data were processed

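Peak lists of the 4 pulldown samples were read. The submitters' processing notes name BWA 0.7.12, MACS2 2.1.0 and TAIR10, without options or controls. The deposited lists have no header and hold, in narrow-peak order, the authors' score, the fold enrichment (a linear ratio over local background), the −log10 p and −log10 q of each summit, and the summit's offset. Since each list was scored by itself, such values were not compared between lists. No read counts were used, so depth is unknown.

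Lines with the same start and end are summits of the same interval and were counted as 1 peak, for which the maximum fold and −log10 q and the best-scoring summit were kept. Coordinates are the authors', counted from 1. Names, lengths and positions of genes came from a RefSeq table of TAIR10.1, from which no coordinates are given; 92.7% of replicate 2 H2B-GFP summits lay in its protein-coding genes, and 64.4 and 65.1% after a move of 10 kb up or down. Overlaps were computed with Python 3.11.15, pandas 2.3.3 and numpy 2.4.6 and tested on simulated data. All 10 genes were to be named; of the other 33 genes, those with a body peak in both lists and the 3 most covered in replicate 2. The members, lists and groups were chosen with earlier results of these data known, and no test over genes was made. Alternatives were stricter q values, other overlaps and windows, other length tolerances, a shortened replicate 2 list, PRR5 with the morning genes, and each replicate left out.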

Additional observations from a re-analysis of the deposited data

How the results depend on the processing

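The counts of clock genes in replicate 1 and in both replicates moved with the peak threshold, and those in replicate 2 with the length of its list. With a −log10 q of at least 2, the count of clock genes with an H2B-GFP body peak was 2 in replicate 1, against 2.33% of protein-coding genes. In both replicates it was 1, against 1.66%. With 1 kb on either side it was 2 in replicate 1 and 2 in both. The share of all protein-coding genes was not computed for that window at this threshold, so these counts have no background. With a −log10 q of at least 3 the body count was 0 in replicate 1, against 0.769% of protein-coding genes. It was 2 in replicate 2 (GI and LUX, against 10.8%) and 0 in both (against 0.488%). With only the 1361 strongest replicate 2 peaks, the count in replicate 2 was 1, all of it LUX, and so were the count in both replicates and the count of afternoon and evening genes in replicate 2; 4.57% of protein-coding genes had such a replicate 2 peak, and 1.23% had one together with a replicate 1 peak. The like-length share in replicate 2 was 30.3% with genes within 50% of the length and 23.9% with a −log10 q of at least 2, against 32.0%. With either replicate left out in turn, the count asked of both replicates was 3 to 4 in the body and 4 to 5 with 1 kb, and the median covered share was 0. The other alternatives, among them a summit inside the body, at least 100 bp covered, windows of 500 bp and 2 kb, arm genes only, and PRR5 counted as a morning gene, kept each count within 1.5 times; in all 36 of 47 values were kept so or within counting error. Stricter lists hold fewer peaks, and the causes of the moved values were not tested. No paired analysis was possible because each list was read separately and the counts come from no test.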

Other observations

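The clock-controlled gene GRP7 (AT2G21660), which encodes a glycine-rich RNA-binding protein of a feedback loop driven by the clock, was the only 1 of the 33 further genes with an AtGBPL3-GFP peak in or within 1 kb, against 0.117% of all protein-coding genes; it is named after its values were seen. The peak, in replicate 2 only, lay inside the gene on chromosome 2 (9265382 to 9265708, 327 bp), with a fold of 2.83 and a −log10 q of 1.88, ranking 80 of 81 in its list by q. H2B-GFP replicate 2 had a peak around the same place (9265354 to 9265795, fold 1.85, −log10 q 3.13), and replicate 1 had none in the gene. AtGBPL3-GFP replicate 1 had no peak there.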
